A study of Mus musculus with 15 samples.

Results

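The 39 Hox genes of the mouse were followed in skin of irradiated mice, as every symbol of the deposited tables made of Hoxa, Hoxb, Hoxc or Hoxd and a number, out of 24027 symbols in all. There are 11 genes in HoxA, 10 in HoxB, 9 in HoxC and 9 in HoxD. Total RNA was sequenced from skin of female mice of the hairless strain SKH1, which received ultraviolet B (UVB) at 500 J/m2 on 5 days per week for 10 weeks, starting at 6 to 8 weeks of age. This induces actinic keratoses, keratinocyte lesions that can precede squamous cell carcinoma. The 15 libraries form 5 groups of 3. One group is lesional skin of mice given GZ21T cream. The other 4 are from mice given a placebo cream and hold lesional skin, perilesional skin, non-lesional skin or skin that was not exposed to UV (non-UV skin), with 0.25 g of cream on 5 days per week in both arms. All groups share strain, sex and the diagnosis of actinic keratoses in the labels, and the tissue is labelled as skin with no body site.

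Hox genes encode homeodomain transcription factors that give cells their position along the head-to-tail axis. They lie in 4 clusters, and within a cluster low paralog numbers are generally expressed towards the head and high numbers towards the tail and the distal limb. Adult skin keeps much of this code, above all in dermal fibroblasts, so that skin of different body sites carries different Hox profiles. The question put to the tables was therefore whether non-UV skin differs in its Hox code from the irradiated sites, and whether those sites differ among themselves.

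The clusters lie on 4 chromosomes of the build GRCm38. HoxA spans chr6:52155590-52260880, HoxB chr11:96194316-96368256, HoxC chr15:102921103-103036852 and HoxD chr2:74668310-74765142, in the GENCODE annotation. Hoxb8 and Hoxc4 were among the genes that differed most, in opposite directions, and their promoter windows around a RefSeq transcription start are shown from RefSeq (GRCm38.p6), in the direction of transcription. The Hoxb8 window is chr11:96281655-96281954 and the Hoxc4 window chr15:103034145-103034444, both on the plus strand. The RefSeq start used for Hoxc4 lies inside the gene as GENCODE annotates it, downstream of its first base there. Capitals mark matches, on either strand, to TGATNNAT, a sequence bound by Hox proteins together with Pbx, or to TATAAA, the sequence of a TATA box.
Hoxb8: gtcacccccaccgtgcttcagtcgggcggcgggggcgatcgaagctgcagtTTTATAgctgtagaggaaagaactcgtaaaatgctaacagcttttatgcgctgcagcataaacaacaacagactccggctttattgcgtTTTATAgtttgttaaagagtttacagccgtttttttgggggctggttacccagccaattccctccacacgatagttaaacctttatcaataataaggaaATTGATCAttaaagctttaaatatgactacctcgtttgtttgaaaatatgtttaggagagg
Hoxc4: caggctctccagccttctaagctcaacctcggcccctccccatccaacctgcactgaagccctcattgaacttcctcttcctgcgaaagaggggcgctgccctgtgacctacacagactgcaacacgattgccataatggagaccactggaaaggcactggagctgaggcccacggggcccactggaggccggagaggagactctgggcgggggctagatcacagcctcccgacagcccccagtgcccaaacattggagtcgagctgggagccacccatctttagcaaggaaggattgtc
The Hoxb8 window holds 1 match to TGATNNAT and 2 to TATAAA, and the Hoxc4 window holds 0 matches to these motifs or to the homeodomain core TAATTA. All 3 matches in the Hoxb8 window lie on the strand opposite to transcription, and whether they act there was not tested. Promoters of 22 of the 39 Hox genes were found in the RefSeq table, 24 windows in all. TGATNNAT was in 16.7% of these windows and in 8.85% of 32851 promoter windows of all genes. TATAAA was in 16.7% of the Hox windows and in 13.6% of all. The Hox windows had a median of 14.5 CpG dinucleotides, against 7 in all promoters.

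The clusters also encode microRNAs. Mir196a-1 lies in HoxB at chr11:96265187-96265208, Mir196a-2 in HoxC at chr15:102973365-102973386 and Mir196b in HoxA at chr6:52230129-52230150, and their product miR-196 is known to cleave Hoxb8 mRNA. The mature sequences from RefSeq (GRCm38.p6) are shown with the seed, bases 2 to 8, in capitals. They are followed by the stretch of the Hoxb8 3′ UTR that pairs best with miR-196a, from the GENCODE transcripts, in which the capital marks the base that forms the G:U pair.
miR-196a-5p: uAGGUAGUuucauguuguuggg
miR-196b-5p: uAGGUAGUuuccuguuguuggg
Hoxb8 site: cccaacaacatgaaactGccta
Both microRNAs share 1 seed. Of the 22 bases of miR-196a, 21 form Watson-Crick pairs with the Hoxb8 site and 1 a G:U pair, with the best site of any other Hox 3′ UTR at 19 paired bases, G:U pairs included. The perfect 7-base seed match ACTACCT occurs in the 3′ UTR of 8 of the 39 Hox genes, 20.5%, against 6.05% of 20987 coding genes. These are Hoxa4, Hoxa5, Hoxa7, Hoxa9, Hoxb1, Hoxb6, Hoxb7 and Hoxc8. Hoxb8 is not among them, since the G:U pair of its site falls within the seed. None of Mir196a-1, Mir196a-2 and Mir196b has a fold change in the tables, so the microRNA itself was not measured here.

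Each deposited table gives, per gene, a log2 fold change between groups and its Wald test, and no value per library, so replicate values and depth are unknown and the error given is the standard error (SE) of the fold change. The placebo groups all carry the numbers 1 to 3, but nowhere in the labels is a number tied to an animal of its own, so the tests reflect how much these libraries varied, in part perhaps for technical reasons. Placebo libraries of the same number may come from the same mouse. The derived tests treat the groups as independent and use no such pairing. Comparisons the authors did not deposit were derived by adding or subtracting their log2 fold changes. The group that the table headers call back was taken as the non-UV group by elimination. A gene was called at an adjusted p under 0.05. Of the 39 Hox genes, 13 were tested in all 4 tables, 15 in some, 6 have fold changes but no adjusted p in any table (Hoxa13, Hoxb1, Hoxb13, Hoxd1, Hoxd10 and Hoxd11) and 5 have no fold change in any table (Hoxa11, Hoxc11, Hoxc12, Hoxd12 and Hoxd13). The untested and missing genes are thus mostly those of high paralog number, and counts of called genes are over the tested ones and do not stand for all 39. All 8 keratinocyte markers were tested in every comparison, and of 10 dermal fibroblast markers all 10, or 9 in GZ21T over placebo lesions.

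Skin of the 3 irradiated placebo sites carried more RNA of 3 HoxB and 2 HoxA genes and less of 5 HoxC genes than non-UV skin, while other members of the same clusters were not called. In the mean of the 3 sites over non-UV skin, derived from the authors' deposited tables, 10 of the 26 Hox genes tested were called, 38.5%, against 12.9% of the 14121 genes tested. Of these, 5 were higher (Hoxa5, Hoxa9, Hoxb6, Hoxb7 and Hoxb8) and 5 lower (Hoxc4, Hoxc5, Hoxc6, Hoxc8 and Hoxc13), against 6.21% of all genes called higher and 6.67% called lower. By cluster, the median log2 fold change was 0.85 in HoxA, 1.02 in HoxB, -0.93 in HoxC and 0.66 in HoxD, and 0.02 over all genes tested. No called HoxA or HoxB gene was lower and no called HoxC gene was higher in this mean. In bulk skin, fewer cells of a type and less RNA per cell cannot be told apart.

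**Figure D1:**
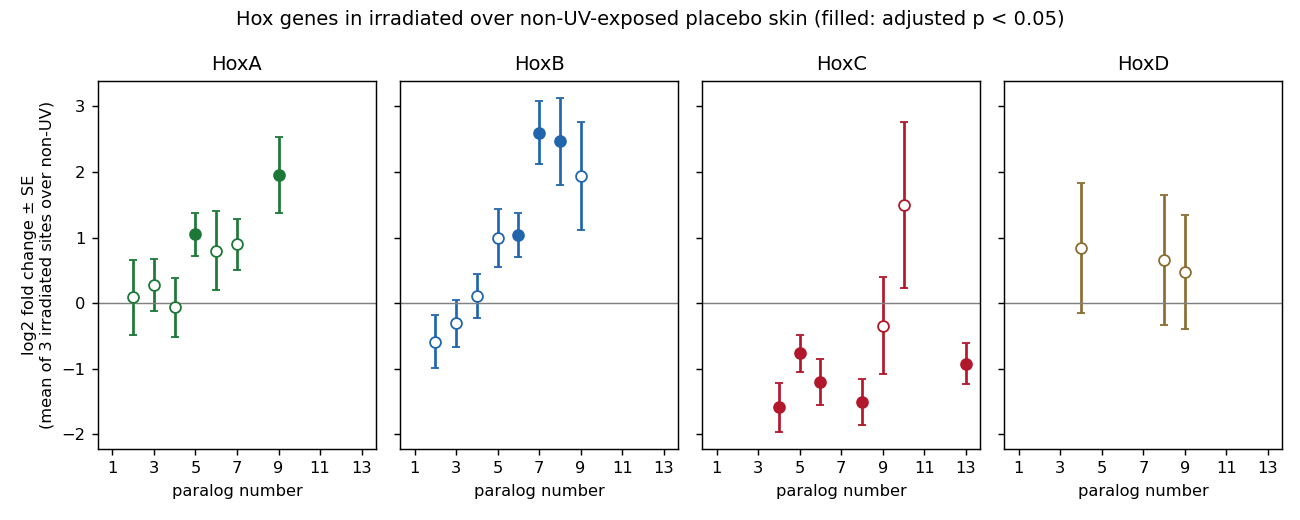
Log2 fold change of tested Hox genes (y axis, points with SE bars) in the mean of lesional, perilesional and non-lesional placebo skin over non-UV skin, by paralog number (x axis) and cluster; filled points have an adjusted p under 0.05. The 5 filled points of HoxA and HoxB lie between 1.04 and 2.60 and the 5 of HoxC between -1.59 and -0.77.

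HoxB showed a graded profile along the cluster. The log2 fold changes of the 3-site mean, derived from the authors' deposited tables, were -0.59 for Hoxb2, -0.31 for Hoxb3, 0.11 for Hoxb4, 1.00 for Hoxb5, 1.04 for Hoxb6, 2.60 for Hoxb7, 2.47 for Hoxb8 and 1.94 for Hoxb9. The values thus went up with paralog number as far as Hoxb7, and the 95% intervals of Hoxb2 (-1.39 to 0.21) and Hoxb7 (1.66 to 3.53) do not overlap, while those of Hoxb7, Hoxb8 and Hoxb9 do. Only Hoxb6, Hoxb7 and Hoxb8 of these 8 were called. Hoxb5 (adjusted p = 0.123) and Hoxb9 (adjusted p = 0.102), the neighbours of the called genes on either side, missed the threshold in this normal test with Benjamini-Hochberg adjustment. All 8 were measured in the same libraries, so they are not independent points. Hoxb2 and Hoxb3 overlap the antisense Hoxb3os and Hoxb5 overlaps the antisense Hoxb5os, with no strand setting of the counting stated.

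Hoxb7 (chr11:96286623-96290162, plus strand), a central paralog known for patterning the thorax, was the Hox gene that differed most firmly. Set against non-UV skin at 0, its log2 level was 2.66 in GZ21T lesional, 2.38 in placebo lesional, 2.69 in perilesional and 2.73 in non-lesional skin, in the authors' deposited tables and sums of them. Here and for the genes below, the levels in perilesional and GZ21T lesional skin are such sums, and those in placebo lesional and non-lesional skin are deposited. All 4 irradiated groups lay far above non-UV skin and close to each other. The 3-site mean was 6.06-fold higher than non-UV skin (log2 2.60 ± 0.48 SE, adjusted p = 7.4e-06, normal test). The SE of the Hoxb7 fold change was 0.55 in lesional and in non-lesional over non-UV skin. Without non-UV skin it was 0.37 in perilesional over non-lesional skin and 0.39 in GZ21T over placebo lesions. How many reads Hoxb7 had in non-UV skin is unknown. Hoxb7 was also the only Hox gene called in each single irradiated group against non-UV skin.

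Hoxb8 (chr11:96281905-96285315, plus strand), whose loss in mice causes excessive grooming, followed Hoxb7 at a larger error. Its log2 level relative to non-UV skin was 1.85 in GZ21T lesional, 2.62 in placebo lesional, 2.30 in perilesional and 2.48 in non-lesional skin, from the authors' deposited tables. The 3-site mean was 5.53-fold higher (log2 2.47 ± 0.66 SE, adjusted p = 0.0046, normal test). Hoxb6 (chr11:96292476-96301569, plus strand), which lies next to Hoxb7, had log2 levels of 0.84 in GZ21T lesional, 0.79 in placebo lesional, 1.06 in perilesional and 1.27 in non-lesional skin relative to non-UV skin, from the authors' deposited tables. It was called in the 3-site mean (log2 1.04 ± 0.34 SE, adjusted p = 0.023, normal test) and in none of the single sites.

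In HoxA the called genes were Hoxa5 and Hoxa9. Hoxa9, at chr6:52223100-52231089 on the minus strand, is a partner of Meis1 in leukaemia and acts in the limb and blood. Its log2 level relative to non-UV skin was 1.17 in GZ21T lesional, 2.48 in placebo lesional, 1.69 in perilesional and 1.69 in non-lesional skin, from the authors' deposited tables. The 3-site mean was 3.87-fold higher (log2 1.95 ± 0.58 SE, adjusted p = 0.012, normal test), and an exon of Hoxa9 overlaps Mir196b on the same strand. Hoxa5 (chr6:52201754-52204587, minus strand), needed for lung and neck to thorax patterning, had log2 levels of 0.58 in GZ21T lesional, 1.11 in placebo lesional, 0.74 in perilesional and 1.30 in non-lesional skin relative to non-UV skin, from the authors' deposited tables. Its 3-site mean was 2.07-fold higher (log2 1.05 ± 0.33 SE, adjusted p = 0.018, normal test). Of the HoxA genes without a call, Hoxa4 had a log2 fold change of -0.07, Hoxa2 of 0.09, Hoxa3 of 0.27, Hoxa6 of 0.80 and Hoxa7 of 0.90.

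The called HoxC genes were all lower in irradiated skin. Hoxc4 (chr15:103018934-103036852, plus strand), at the 3′ end of the cluster, had log2 levels of -0.71 in GZ21T lesional, -2.40 in placebo lesional, -1.74 in perilesional and -0.64 in non-lesional skin relative to non-UV skin, from the authors' deposited tables. Unlike Hoxb7, it differed widely among irradiated groups. Its 3-site mean was 3.02-fold lower (log2 -1.59 ± 0.38 SE, adjusted p = 0.00093, normal test).

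Hoxc8 (chr15:102990607-102994111, plus strand), known for thoracic vertebrae and motor neurons of the forelimb, had log2 levels of -1.13 in GZ21T lesional, -1.80 in placebo lesional, -1.61 in perilesional and -1.11 in non-lesional skin relative to non-UV skin, from the authors' deposited tables. The 3-site mean was 2.84-fold lower (log2 -1.51 ± 0.35 SE, adjusted p = 0.00082, normal test). Hoxc6 (chr15:102998257-103011881, plus strand), a gene of the thorax and mammary gland, was 2.30-fold lower in the 3-site mean (log2 -1.20 ± 0.35 SE, adjusted p = 0.01, normal test). Its log2 levels were -0.93 in GZ21T lesional, -1.38 in placebo lesional, -1.50 in perilesional and -0.73 in non-lesional skin, from the authors' deposited tables. Hoxc6 was called in placebo lesional and perilesional skin, but not in GZ21T lesional (adjusted p = 0.296, normal test) or non-lesional skin (adjusted p = 0.62, DESeq2 in the authors' deposited table).

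Hoxc5 was 1.70-fold lower in the 3-site mean (log2 -0.77 ± 0.28 SE, adjusted p = 0.048, normal test), just inside the threshold. Its gene model shares exonic sequence with Hoxc10, so reads of these genes may be split, and Hoxc10 itself had a log2 fold change of 1.50 ± 1.26 SE with no call. The remaining tested HoxC gene without a call, Hoxc9, had a log2 fold change of -0.34 ± 0.75 SE. Both errors are over 0.7 on the log2 scale, so changes of the size seen in Hoxc6 were not detectable there.

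Hoxc13 (chr15:102921103-102928814, plus strand), at the 5′ end of HoxC, is the Hox gene of hair and nail and drives hair keratin genes. It was 1.90-fold lower in the 3-site mean (log2 -0.93 ± 0.31 SE, adjusted p = 0.028, normal test), with log2 levels of -0.29 in GZ21T lesional, -1.08 in placebo lesional, -0.77 in perilesional and -0.94 in non-lesional skin. Markers of the hair matrix and shaft moved with it in that mean, with 9 of 14 lower, against 6.67% of all genes tested, 0 higher and log2 fold changes between -4.75 and 0.01. In perilesional over non-UV skin 10 of these 14 were lower, against 5.37% of all genes tested, and in lesional over non-UV skin 2 of 14, or 14.3%, against 8.17%, while Hoxc13 differed by less than its error between perilesional and non-lesional skin (log2 0.17 ± 0.38 SE in the authors' deposited table). The part of the hair markers in the HoxC values was not tested.

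Read by paralog number, the clusters parted within the same number. At paralog 8 the log2 fold change of the 3-site mean was 2.47 for Hoxb8, -1.51 for Hoxc8 and 0.66 ± 0.99 SE for Hoxd8. At paralog 6 it was 0.80 for Hoxa6, 1.04 for Hoxb6 and -1.20 for Hoxc6, and at paralog 5 it was 1.05 for Hoxa5, 1.00 for Hoxb5 and -0.77 for Hoxc5. At paralog 4 it was -0.07 for Hoxa4, 0.11 for Hoxb4, -1.59 for Hoxc4 and 0.83 ± 0.99 SE for Hoxd4. In each of these 4 numbers the HoxC member was the lowest. Of the 5 tested genes of paralogs 1 to 3 none was called. Of the 15 of paralogs 4 to 8 there were 4 higher and 4 lower. Of the 6 tested genes of paralogs 9 to 13 there was 1 higher and 1 lower. All genes tested in this mean had 12.9% called, 6.21% higher and 6.67% lower. With so few genes per class, the classes were not compared by a test. The 3 tested HoxD genes had SEs of 0.87 to 0.99, over 2 times those of the called genes of HoxC, and none was called.

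**Figure D2:**
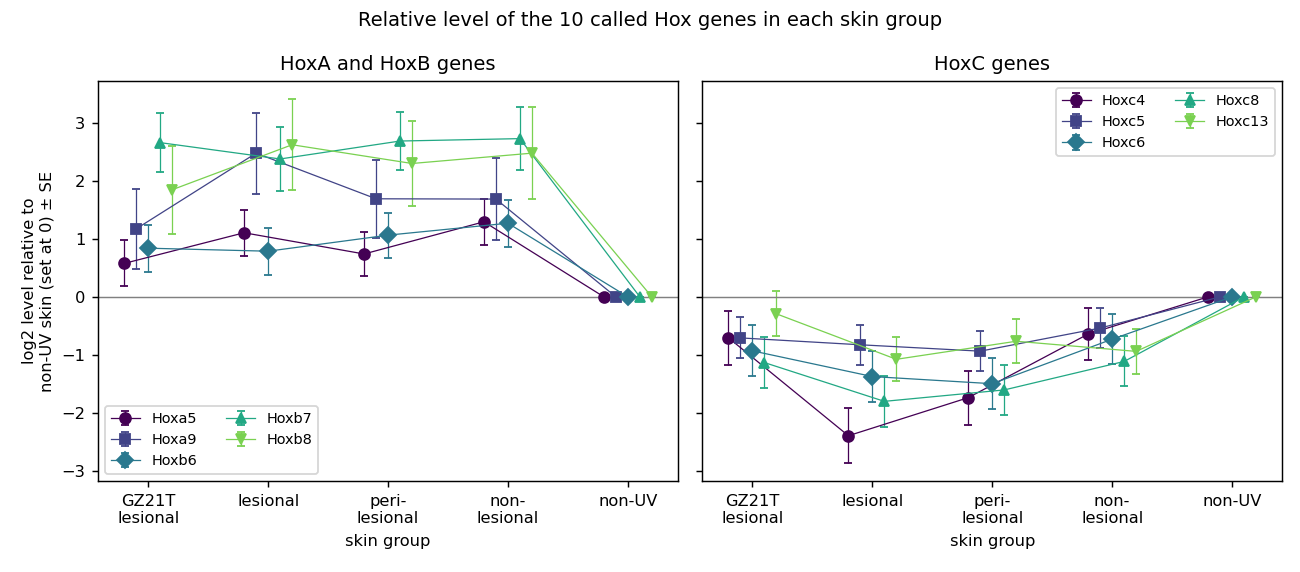
Log2 level of the 10 called Hox genes relative to non-UV skin, which is set at 0 (y axis, SE bars), in each skin group (x axis), with HoxA and HoxB genes in one panel and HoxC genes in the other; lines only join the points of a gene. Hoxb7 lies between 2.38 and 2.73 in every irradiated group, while Hoxc4 spans -2.40 in lesional to -0.64 in non-lesional placebo skin.

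The single sites gave fewer calls than their mean. In placebo lesional over non-UV skin, in the authors' deposited table, 8 of 28 Hox genes tested were called, 4 higher and 4 lower, against 18.3% of all genes tested (10.2% higher and 8.17% lower). The higher ones were Hoxa5, Hoxa9, Hoxb7 and Hoxb8 and the lower ones Hoxc4, Hoxc6, Hoxc8 and Hoxc13. In perilesional over non-UV skin, a derived comparison, 5 of 26 were called, against a background of 9.88% (4.5% higher and 5.37% lower). These were Hoxb7 and Hoxb8 (higher) and Hoxc4, Hoxc6 and Hoxc8 (lower). In non-lesional over non-UV skin, in the authors' deposited table, only Hoxb7 of 26 was called (adjusted p = 0.00021, DESeq2), against a background of 1.66%, and 8 genes were higher and 2 lower at an unadjusted p under 0.05. In GZ21T lesional over non-UV skin, added after the tables were seen, only Hoxb7 of 28 was called (adjusted p = 3.9e-05, normal test), against a background of 3.66%. These comparisons share the non-UV libraries, so their likeness is not independent.

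Among the irradiated placebo sites 1 Hox gene was called. In perilesional over non-lesional skin, in the authors' deposited table, DESeq2 called 0 of 28 Hox genes, against a background of 0.112%, and 2 (Hoxa3 and Hoxc4) were lower at an unadjusted p under 0.05. In lesional over perilesional skin the derived normal test called 0 of 26, against a background of 0.68%, and 0 had an unadjusted p under 0.05. In lesional over non-lesional skin it called 1 of 26, against a background of 5.47%. That gene was Hoxc4, 3.38-fold lower in lesional skin (log2 -1.76 ± 0.47 SE, adjusted p = 0.011, normal test). Hoxa2 and Hoxa3 were lower there at an unadjusted p under 0.05 as well.

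A missed threshold does not show that the sites are alike, and the intervals say how large a difference could remain. For Hoxb7 the 95% interval of the log2 difference was -0.77 to 0.69 for perilesional over non-lesional skin, in the authors' deposited table. The derived intervals were -1.05 to 0.43 for lesional over perilesional and -1.22 to 0.52 for lesional over non-lesional skin. All 3 lie below the interval of 1.66 to 3.80 for non-lesional over non-UV skin, in the authors' deposited table. For Hoxb8 the interval of lesional over non-lesional skin reached from -1.26 to 1.55, which overlaps the interval of 0.93 to 4.03 for non-lesional over non-UV skin in the authors' deposited table. For Hoxc8 the interval of lesional over non-lesional skin (-1.56 to 0.18) likewise overlaps the interval of -1.96 to -0.27 for non-lesional over non-UV skin in the authors' deposited table.

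**Figure D3:**
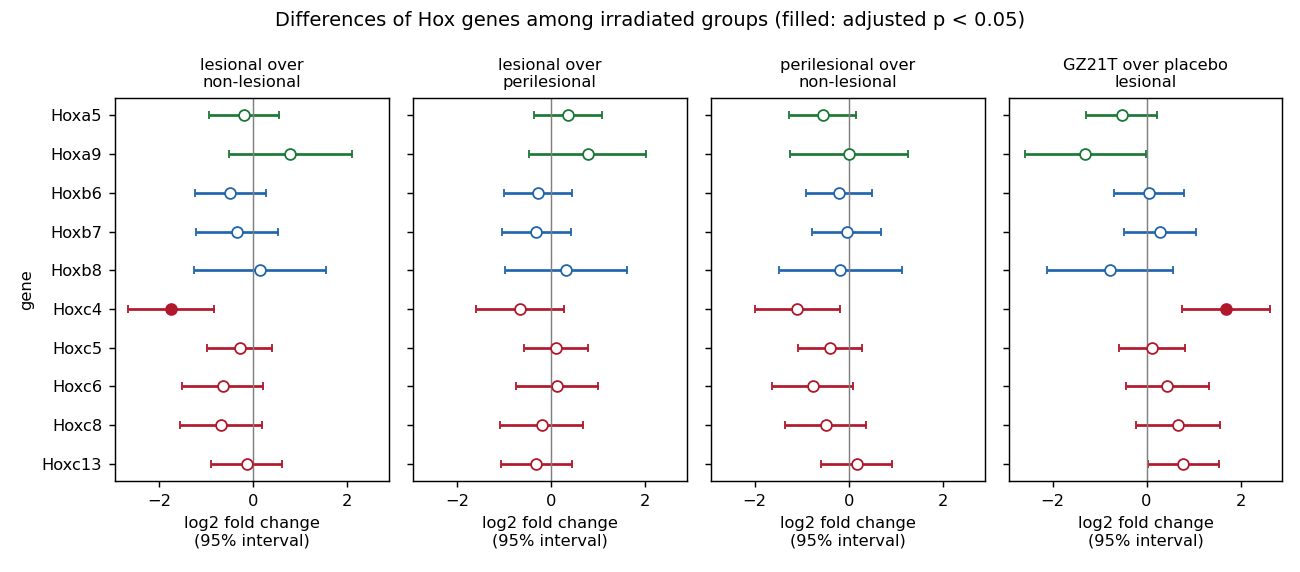
Log2 fold change with its 95% interval (x axis) of the 10 called Hox genes (y axis) between irradiated groups, in 4 panels; filled points have an adjusted p under 0.05. Only Hoxc4 is filled, at -1.76 in lesional over non-lesional placebo skin and at 1.69 in GZ21T over placebo lesional skin.

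The labels give no body site for the non-UV group, but the headers of the authors' tables call it back, a name that may state a site. No header or label gives the body site of the irradiated groups, so whether the sites differ could not be read from them. The Hox difference between irradiated and non-UV skin runs through UV exposure and any difference in site at once, and the groups do not separate them, so exposure and body site cannot be told apart. The measurement is that 10 of the 26 Hox genes tested were called in the 3-site mean, 38.5%, against 12.9% of all genes tested. There, the called HoxA and HoxB genes were higher and the called HoxC genes lower, and no HoxD gene was called. Among the irradiated placebo sites 1 Hox gene was called, in lesional over non-lesional skin, 3.85% of the 26 tested. This was below the 5.47% of all genes called there. In perilesional over non-lesional and in lesional over perilesional skin 0 were called, against 0.112% and 0.68% of all genes. The mean of 3 sites has a smaller error than any pair of sites (median SE over all genes tested 0.264, against 0.314 to 0.336 among the irradiated placebo sites), so the numbers of calls are not on equal terms.

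Markers of other cell types stood as follows beside the 3-site mean. Of the dermal fibroblast markers, the cells in which the position code is best known, 0 of 10 were called by the normal test, with log2 fold changes between -1.39 and 0.89. In non-lesional over non-UV skin, in the authors' deposited table, all 10 were negative, with a median of -0.84 and 0 called by DESeq2. In perilesional and in lesional over non-UV skin 7 of the 10 were positive in each, with medians of 0.30 and 0.71 and 0 called, and Hoxb7 was higher at all 3 sites. All 10 skeletal muscle markers were positive in the 3-site mean, between 1.47 and 2.87, with 0 called. Of the other lists, 0 of 8 keratinocyte, 0 of 7 adipocyte and 0 of 3 melanocyte markers were called in that mean. Of the 7 adipocyte markers 6 were negative and 1 positive in it, between -2.96 and 0.50, with a median of -1.26. There, 1 of 5 endothelial markers was higher (Kdr) and 1 of 4 macrophage markers lower (Cd68). Over all genes tested in that mean 12.9% were called, 6.21% higher and 6.67% lower. All 5 endothelial markers were positive, with a median of 1.94, and 3 of the 4 macrophage markers were negative. The part of these cell types in the Hox values was not tested.

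Hoxc4 was the single Hox gene called under treatment. In GZ21T over placebo lesional skin, in the authors' deposited table with its sign turned, 1 of 13 Hox genes tested was called, against a background of 3.61%. Hoxc4 was 3.23-fold higher in GZ21T lesions (log2 1.69 ± 0.48 SE, adjusted p = 0.028, DESeq2). Its log2 level relative to non-UV skin was thus -0.71 in GZ21T lesions, against -2.40 in placebo lesions, with non-lesional placebo skin at -0.64. The placebo lesional libraries enter both the treatment comparison and that with non-UV skin, so the opposite signs are not independent. Hoxc13 (log2 0.78 ± 0.39 SE, adjusted p = 0.199) and Hoxa9 (log2 -1.31 ± 0.66 SE, adjusted p = 0.208) missed the threshold in the authors' deposited table. Hoxb7 and Hoxb8 have no adjusted p there, and their log2 fold changes in the authors' deposited table were 0.28 ± 0.39 SE and -0.78 ± 0.68 SE. Hair matrix and shaft markers were positive in 10 of 10 tested in this comparison, between 0.22 and 2.34, with 0 called by DESeq2, and 2 of 8 keratinocyte markers were higher. Krt1, a keratin of differentiating epidermis, stood at log2 1.42 ± 0.38 SE (adjusted p = 0.019, DESeq2) in GZ21T over placebo lesions in the authors' deposited table, and Dsg1a, a desmosomal cadherin, at log2 1.06 ± 0.27 SE (adjusted p = 0.016, DESeq2). Both were lower in lesional over non-lesional skin, at log2 -1.27 ± 0.38 SE (adjusted p = 0.026) and -1.19 ± 0.27 SE (adjusted p = 0.0031) by the normal test. The keratinocyte list as a whole did not move 1 way. In GZ21T over placebo lesions 4 of the 8 were positive and 4 negative, with a median of -0.009. In lesional over non-lesional skin 2 were positive and 6 negative, with a median of -0.22. The part of the hair and keratinocyte markers in the Hoxc4 values was not tested.

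**Figure D4:**
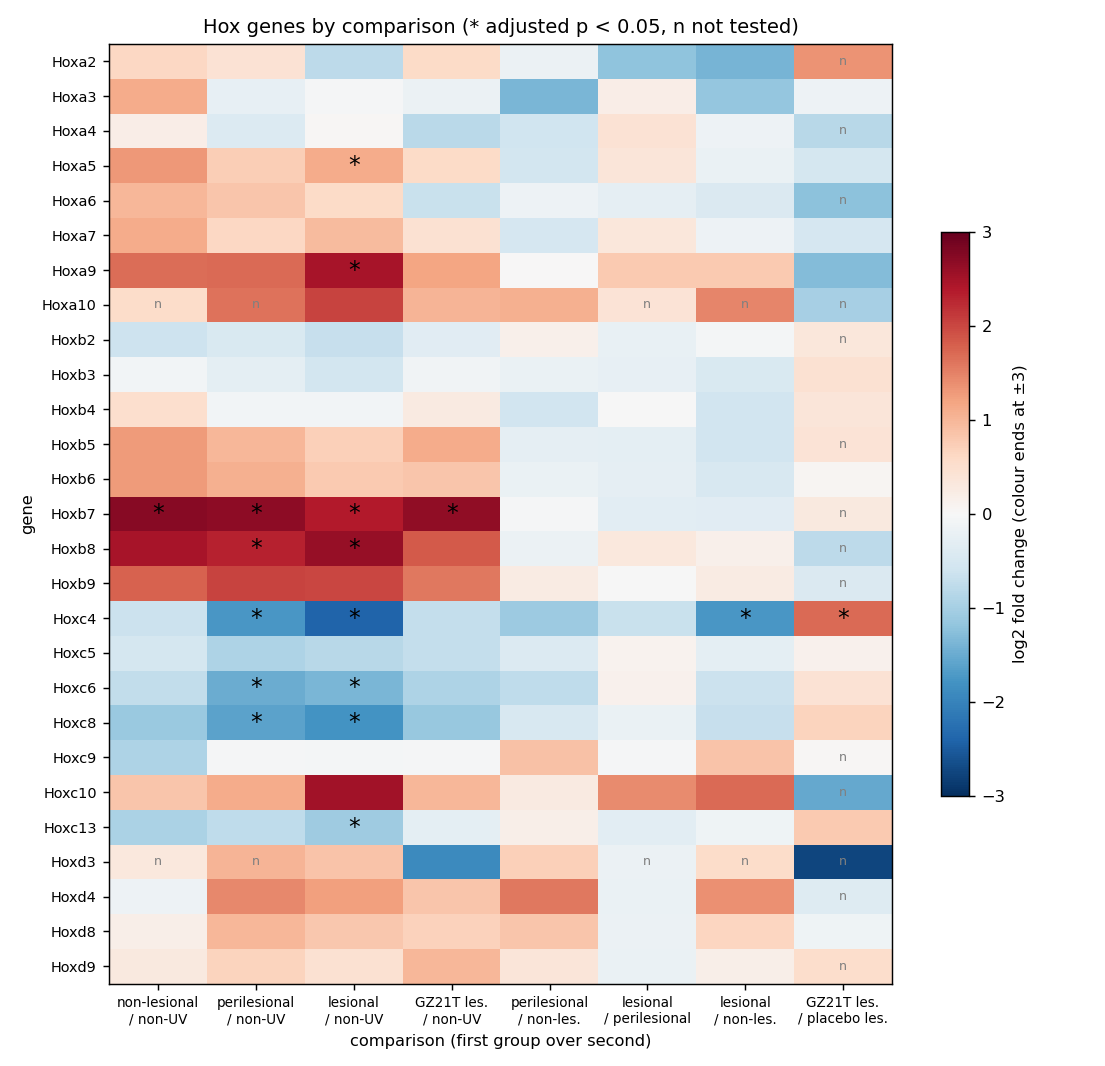
Log2 fold change (colour, ending at 3 in either direction) of Hox genes tested in at least 1 comparison (rows) in 8 comparisons (columns, first group over second); stars mark an adjusted p under 0.05 and n marks genes not tested. Stars in the 4 columns against non-UV skin fall on HoxA and HoxB genes in red and HoxC genes in blue, while among irradiated groups only Hoxc4 has stars.

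Hox proteins bind DNA with TALE homeodomain cofactors of the Pbx and Meis families. In GZ21T over placebo lesions, in the authors' deposited table, Meis1 was higher (log2 0.73 ± 0.20 SE, adjusted p = 0.027, DESeq2). It was 1 of 6 tested, against 3.61% of all genes tested called in either direction.

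Among 25 upstream regulators (caudal, retinoic acid, Polycomb and trithorax genes), 20 were tested in the 3-site mean. Kmt2a, the trithorax methyltransferase that maintains Hox expression, was lower (log2 -0.71 ± 0.22 SE, adjusted p = 0.017, normal test), and so was Cbx7, a Polycomb reader (log2 -1.23 ± 0.41 SE, adjusted p = 0.026, normal test). None was higher. These are 2 of 20, against 12.9% of all genes tested called in that mean and 6.67% called lower. In lesional over non-UV skin, in the authors' deposited table, 5 of 21 regulators, 23.8%, were lower (Rarg, Ezh1, Cbx2, Cbx7 and Kmt2a) and 0 higher by DESeq2, against 8.17% of all genes tested called lower. In perilesional over non-UV skin 2 of 20 were lower (Rnf2 and Kmt2a), against 9.88% of all genes tested called and 5.37% called lower. In non-lesional over non-UV skin 0 of 20 were called by DESeq2 in the authors' deposited table, against 1.66% of all genes tested. In GZ21T over placebo lesions Suz12 alone was lower, 1 of 18, against 3.61% of all genes tested called in either direction. Of the 18 listed other transcripts of the clusters, such as Hotair and Hoxa11os, 12 are in the tables and 0 were tested.

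The calls in the 3-site mean depend on the null spread. When each Wald statistic was divided by the robust SD of the statistics of all genes tested (1.77), 0 of the 10 Hox genes stayed called, and with the largest SE that the deposited SEs allow, 3 did (Hoxb7, Hoxc4 and Hoxc8). The first setting counts real differences as spread wherever many genes differ; Hoxb7 in non-lesional over non-UV skin, where that SD was 1.09, stayed called under it. The call of Hoxc4 in lesional over non-lesional skin and that under GZ21T were lost when the null spread came from the genes, and the first also with the largest SE. Without lesional skin the mean of the remaining irradiated sites called 7 of the 10 (Hoxa9, Hoxc5 and Hoxc13 were lost).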

How the data were processed

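The submitters' processing notes name Trim Galore, DESeq2 and the build GRCm38 (mm10) for the 15 libraries, which were TruSeq Stranded Total RNA, per the labels' protocols. The aligner, counter, annotation, design formula, strand setting and all versions were not given in those sources. From the authors come 4 deposited tables, 1 per comparison, with a log2 fold change and a Wald statistic, a score equal to the fold change over its SE, per the file headers. The deposited p-values and adjusted p-values are those of the authors' Wald test, and genes without an adjusted p were treated as not tested. There are no counts in these tables, depth is unknown, and the number of unused per-library columns is 0. Date-like symbols (25 to 27 per table) were removed.

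The name of 1 table speaks of perilesional and lesional skin, but its header of lesional over back. Of 1423 genes listed at 0 for non-lesional over non-UV skin, 704 were positive and 0 negative in it, and of 1195 at 0 in perilesional over non-lesional skin, 271 were negative, so the header was followed. The placebo over GZ21T table was turned in sign.

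SEs were computed as fold change over statistic. Derived comparisons assume 1 fit of all libraries with the group alone; among 524 genes flat in all tables the median SE ratios to the first table were 0.982, 0.996 and 0.996. Group variances per gene were solved from the squared SEs with the least spread between groups; that of lesional over perilesional skin is exact. Two-sided normal p-values were adjusted by Benjamini-Hochberg over all genes with an adjusted p in the tables used, and intervals are 95%. The derivation was checked on simulated data with independent groups and normal errors. Those settings match what the derivation assumes, so the check could not test the single fit or the lack of pairing. Python 3.11.15, numpy 2.4.6, pandas 2.3.3, scipy 1.17.1, matplotlib 3.10.9 and GENCODE M21 were used.

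The members and lists were chosen with earlier results of these data known. Named with full values are Hox genes called in any comparison; others are given by count, range or as paralogs and neighbours, and members of other lists where called. Alternatives were other filters, a null spread from the genes, median centring, a threshold of 0.1, the largest SE, and, added after the data were seen, the mean without lesional skin and GZ21T lesional over non-UV skin. A few genes of these lists are not reported here.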

Additional observations from a re-analysis of the deposited data

How the results depend on the processing

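No paired analysis was possible because the deposited tables hold no values per library; for the same reason leaving out each replicate and count models in edgeR or DESeq2 were not run, and depth sets an unknown limit. When the null spread came from all genes tested, the number of Hox genes called was 0 in perilesional, in lesional and in the 3-site mean over non-UV skin (5, 8 and 10 as reported), 0 in lesional over non-lesional skin and 0 in GZ21T over placebo lesions (1 each as reported). With the largest SE allowed it was 1 in perilesional over non-UV skin, 3 in the 3-site mean and 0 in lesional over non-lesional skin. Restricting to genes with an adjusted p in all 4 tables gave 0 in non-lesional, 3 in perilesional and 0 in GZ21T lesional over non-UV skin, where the lost genes were Hoxb7 and Hoxb8, which have no adjusted p in the GZ21T table; it likewise gave 6 in lesional over non-UV skin and 8 in the 3-site mean. At a threshold of 0.1 it was 4 in non-lesional and 8 in perilesional over non-UV skin. Median centring exchanged Hoxa5 for Hoxc5 in lesional over non-UV skin, and without a filter Hoxc5 left the 3-site mean. Over single genes, 39 of 464 values lost the call and 8 gained it, and 25 of the 39 were lost under the null spread from the genes. The 464 include many values that were not called to begin with, so they do not give the share of calls that held. Genes that a setting left untested, such as Hoxb7 and Hoxb8 above, are not counted among them. Of these settings only median centring could turn a sign, and it turned that of no called value.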

Other observations

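Of 24 other genes of body position tested in the 3-site mean over non-UV skin, 2 were higher and 2 lower by the normal test, 16.7%, against 12.9% of all genes tested. Pitx1, a hindlimb regulator, was higher (log2 4.19 ± 1.32 SE, adjusted p = 0.018), as was Irx5 (log2 0.60 ± 0.21 SE, adjusted p = 0.037). Tbx3, a gene of limb, mammary and dorsoventral patterning, was lower (log2 -2.20 ± 0.79 SE, adjusted p = 0.043), as was Msx2 (log2 -1.19 ± 0.29 SE, adjusted p = 0.0013), which is also in the hair list. In lesional over non-UV skin, in the authors' deposited table, 3 of 28 were higher (Pitx1, Pax9 and Irx5) and 1 lower (Msx2). That is 14.3%, below the 18.3% of all genes tested. Pax9 stood there at log2 4.89 ± 1.55 SE (adjusted p = 0.015, DESeq2). Tbx15, a dorsal dermis gene, and En1, a ventral ectoderm gene, had log2 values of 0.89 ± 0.84 SE and -1.36 ± 0.87 SE in the 3-site mean, with no call.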
